A study of Mus musculus with 19 samples.

Results

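The 10 granule cell identity genes were *Gabra6*, *Gabrd*, *Cbln1*, *Cbln3*, *Zic1*, *Zic2*, *Neurod1*, *Etv1*, *Grin2c* and *Slc17a7*. They were taken by gene name, as the 10 rows of a table of 41128 Ensembl genes that the GENCODE M21 annotation gives these names, and all 10 were among the 16841 genes with enough counts to be tested. The samples were 19 libraries of prefrontal cortex, striatum and cerebellum RNA from C57BL/6 mice aged 3 months. WT mice were compared with germline SCA17 knock-in (KI) mice, which carry an expanded polyglutamine tract in the endogenous *Tbp* gene and were derived from floxed animals through EIIa-Cre, so that mutant TBP was not limited to one cell type. There were 3 WT and 4 KI libraries of cerebellum, and for each forebrain region 3 WT and 3 KI libraries. TBP is the TATA box-binding protein, a general transcription factor.

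Granule cells are small glutamatergic neurons of the inner cerebellar layer. Their dendrites receive mossy fibers and inhibitory Golgi cell input, and their axons, the parallel fibers, form synapses on Purkinje cells. Mature granule cells are known by a tonic GABA-A receptor built with the α6 and δ subunits (*Gabra6*, *Gabrd*), by secreted cerebellins that hold parallel fiber synapses together (*Cbln1*, *Cbln3*), by the transcription factors ZIC1, ZIC2, NEUROD1 and ETV1, by the NMDA receptor subunit GluN2C (*Grin2c*) and by the vesicular glutamate transporter VGLUT1 (*Slc17a7*). Not all of these genes are restricted to granule cells in the whole brain, and VGLUT1 in particular is also the main transporter of cortical excitatory neurons.

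All members are protein-coding genes on GRCm38. *Gabra6* (ENSMUSG00000020428) lies at chr11:42306437-42321072 and *Gabrd* (ENSMUSG00000029054) at chr4:155384980-155398112. *Cbln1* (ENSMUSG00000031654) lies at chr8:87468405-87472609 and *Cbln3* (ENSMUSG00000040380) at chr14:55878913-55884392. *Zic1* (ENSMUSG00000032368) lies at chr9:91358058-91365810, *Zic2* (ENSMUSG00000061524) at chr14:122475435-122479852, *Neurod1* (ENSMUSG00000034701) at chr2:79452521-79456751 and *Etv1* (ENSMUSG00000004151) at chr12:38779380-38870484. *Grin2c* (ENSMUSG00000020734) lies at chr11:115249169-115267243 and *Slc17a7* (ENSMUSG00000070570) at chr7:45163949-45176142. Exons of *Zic1*, *Neurod1* and *Grin2c* shared 60 to 201 bases with another annotated gene, so reads there could have been counted for either gene or for none.

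Since the knock-in changes a protein that binds TATA boxes, the promoters were read for that motif and for the GC box, the motif of SP1. RefSeq promoter windows of GRCm38.p6, from 250 bases before to 50 bases after a transcription start, were found for 7 of the 10 members in 8 windows. *Gabrd*, *Cbln1* and *Zic2* had no entry. The TATA box letters TATAAA, searched on both strands, were present in 1 of the 7 members, at the second start of *Etv1*, against 13.6% of 32851 mouse windows. The *Etv1* match was the reverse complement, TTTATA. Only the exact letters were counted, so a variant such as TATATAA, which the *Neurod1* window below holds shortly before its start, was left out. The GC box letters GGGCGG, searched on both strands, were present in 4 of the 7 members, *Zic1*, *Neurod1*, *Grin2c* and *Slc17a7*, against 35.7% of windows. A member counted if any of its windows held the letters, while the percentages are of single windows. Neighboring GGGCGG matches share a base in *Grin2c* and in *Slc17a7*, TATAAA and GGGCGG have no base in common, and a match of letters describes the sequence only. Printed here are the windows of *Gabra6* (chr11:42321023-42321322, minus strand) and *Cbln3* (chr14:55884207-55884506, minus strand), the members with the greatest regional difference, and of *Neurod1* (chr2:79456587-79456886, minus strand), the member with the lowest KI fold in the cerebellum and the most GC boxes, 4. Capitals mark GGGCGG or its reverse complement.
Gabra6: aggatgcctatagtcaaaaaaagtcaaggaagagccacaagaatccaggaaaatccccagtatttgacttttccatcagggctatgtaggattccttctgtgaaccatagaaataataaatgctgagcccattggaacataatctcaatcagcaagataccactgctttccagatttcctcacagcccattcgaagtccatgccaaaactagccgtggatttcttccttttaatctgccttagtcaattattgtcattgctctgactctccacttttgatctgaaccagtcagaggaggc
Cbln3: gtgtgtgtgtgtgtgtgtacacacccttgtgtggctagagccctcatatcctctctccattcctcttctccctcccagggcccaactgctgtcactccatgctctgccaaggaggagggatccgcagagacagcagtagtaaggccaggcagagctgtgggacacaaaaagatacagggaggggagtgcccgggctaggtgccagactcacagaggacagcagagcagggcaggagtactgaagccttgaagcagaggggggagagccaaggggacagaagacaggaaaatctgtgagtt
Neurod1: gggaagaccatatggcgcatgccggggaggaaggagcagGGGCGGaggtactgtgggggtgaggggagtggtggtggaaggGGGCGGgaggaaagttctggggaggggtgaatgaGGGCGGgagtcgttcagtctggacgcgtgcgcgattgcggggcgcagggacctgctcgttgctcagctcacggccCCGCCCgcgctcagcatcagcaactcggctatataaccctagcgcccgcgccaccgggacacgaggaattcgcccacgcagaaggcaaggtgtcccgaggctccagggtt

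Libraries held between 10639110 and 17431284 counts (median 15082703). The 2 cerebellum libraries KI 3 and WT 1 held choroid plexus RNA, with a summed level of 6 choroid markers of 4955 and 1970 CPM (counts scaled to a common library size), where the other cerebellum libraries had 12.0 to 35.0 CPM. In the striatum the same sum ran from 1563 to 9021 CPM. The prefrontal cortex library WT 3 stood apart by *Calb2*, the calretinin gene, at 206 CPM against 11.5 to 26.5 CPM in the other 5 cortical libraries, and by *Eomes*, a T-box factor, at 30.0 CPM against at most 0.407 CPM. *Tbp* itself, whose counts do not tell the mutant from the normal allele, was at 52.5 to 62.0 CPM in WT and 48.5 to 56.6 CPM in KI cerebellum (log2 fold change -0.14, SE 0.0973, adjusted p = 0.687, edgeR).

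The regional pattern in WT mice was examined first, since it shows how far each gene stands for the cerebellum. In WT cerebellum *Gabra6* was the most abundant member per length, at 504 ± 20.5 RPKM (CPM per kilobase of exon; SD, n = 3), which was rank 30 among the 16841 tested genes. *Cbln3* followed at 300 ± 38.4 RPKM, *Neurod1* at 164 ± 20.9 RPKM, *Gabrd* at 130 ± 5.71 RPKM, *Cbln1* at 103 ± 22.8 RPKM and *Slc17a7* at 96.3 ± 9.97 RPKM. The lower members were *Grin2c* at 42.1 ± 6.70 RPKM, *Etv1* at 27.7 ± 0.744 RPKM, *Zic1* at 17.0 ± 2.01 RPKM and *Zic2* at 12.4 ± 0.741 RPKM. Among neighbors in this order, the libraries overlapped for *Cbln1* and *Slc17a7* and were separate for the rest. Lengths were those of all annotated exons joined, which lowers RPKM where most transcripts use few of them, as may apply to *Etv1* with 13296 exon bases.

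All 10 members were higher in WT cerebellum than in WT striatum by edgeR's quasi-likelihood test, where 56.5% of tested genes were called and 27.8% were called higher. Of the 10, 9 were higher in WT cerebellum than in WT prefrontal cortex, where 52.0% of genes were called and 25.1% were called higher. The median member log2 fold change was 5.09 against the striatum and 4.82 against the prefrontal cortex, and over all tested genes the medians were -0.0018 and 0.0038. Between WT striatum and WT prefrontal cortex 5 members were called, where 30.5% of genes were.

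The GABA-A receptor subunits differed sharply in this respect. *Gabra6* was at 508, 481 and 522 RPKM in the WT cerebellum libraries, at 0.268, 0.926 and 0.217 RPKM in the striatum and at 0.550, 0.409 and 0.271 RPKM in the prefrontal cortex. The cerebellum stood far above both forebrain regions, which overlapped, and the log2 fold change was 10.06 (SE 0.298, adjusted p = 2.93e-13) against the striatum and 10.25 (SE 0.300, adjusted p = 1.87e-13) against the prefrontal cortex. *Gabrd*, whose δ subunit also joins other α subunits in forebrain neurons, was at 127, 137 and 127 RPKM in the cerebellum, 82.9, 87.6 and 85.5 RPKM in the striatum and 35.1, 47.6 and 36.5 RPKM in the prefrontal cortex. The 3 regions did not overlap for *Gabrd*, and its log2 difference between cerebellum and striatum, 0.61 (SE 0.167, adjusted p = 0.00500), was the smallest of the members.

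The cerebellins were cerebellar in the main. *Cbln3*, whose product is secreted together with CBLN1, was at 256, 314 and 329 RPKM in the cerebellum and at no more than 0.412 RPKM in any WT forebrain library. Its log2 fold change was 10.44 (SE 0.417, adjusted p = 3.53e-12) against the striatum. *Cbln1*, which binds neurexins at parallel fiber synapses, was at 76.8, 119 and 113 RPKM in the cerebellum. It kept a low forebrain level that was higher in the prefrontal cortex (0.938 to 2.71 RPKM) than in the striatum (0.220 to 0.636 RPKM), with a log2 difference of -2.18 for striatum against cortex (SE 0.483, adjusted p = 0.00242).

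Among the transcription factors, *Neurod1*, a basic helix-loop-helix factor required in granule neuron differentiation, was at 144, 162 and 185 RPKM in WT cerebellum. It was at 6.10, 3.33 and 3.43 RPKM in the prefrontal cortex and at 0.0489, 0.517 and 0.255 RPKM in the striatum, and the 3 regions did not overlap. *Zic1* and *Zic2*, zinc finger factors of cerebellar development, had log2 fold changes of 5.08 (SE 0.402) and 5.09 (SE 0.254) against the striatum. Their striatal and cortical libraries overlapped. *Etv1*, an ETS factor of maturing granule cells that cortical layer neurons also use, had a smaller log2 fold change of 2.76 (SE 0.132) against the striatum and was lower in striatum than in cortex by a log2 difference of -0.49 (SE 0.126, adjusted p = 0.00730).

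The glutamate genes were expressed in the forebrain as well. *Grin2c* had a log2 fold change of 2.61 (SE 0.234) against the striatum and 2.46 (SE 0.232) against the prefrontal cortex. *Slc17a7* was at 84.9, 103 and 101 RPKM in WT cerebellum, at 288, 225 and 178 RPKM in WT prefrontal cortex and at 4.32, 1.56 and 31.8 RPKM in WT striatum. It was the only member with a mean above its cerebellar level elsewhere. Its cortical libraries all lay above the cerebellar ones, with a log2 fold change for cerebellum against cortex of -1.26 (SE 0.623, adjusted p = 0.102) that was not called. This SE takes in the wide spread of *Slc17a7* in the striatum, and with the cerebellum and prefrontal cortex libraries alone the difference of -1.26 was called (SE 0.164, adjusted p = 3.02e-05). Over all alternatives its adjusted p ran from 3.02e-05 to 0.225.

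**Figure D1:**
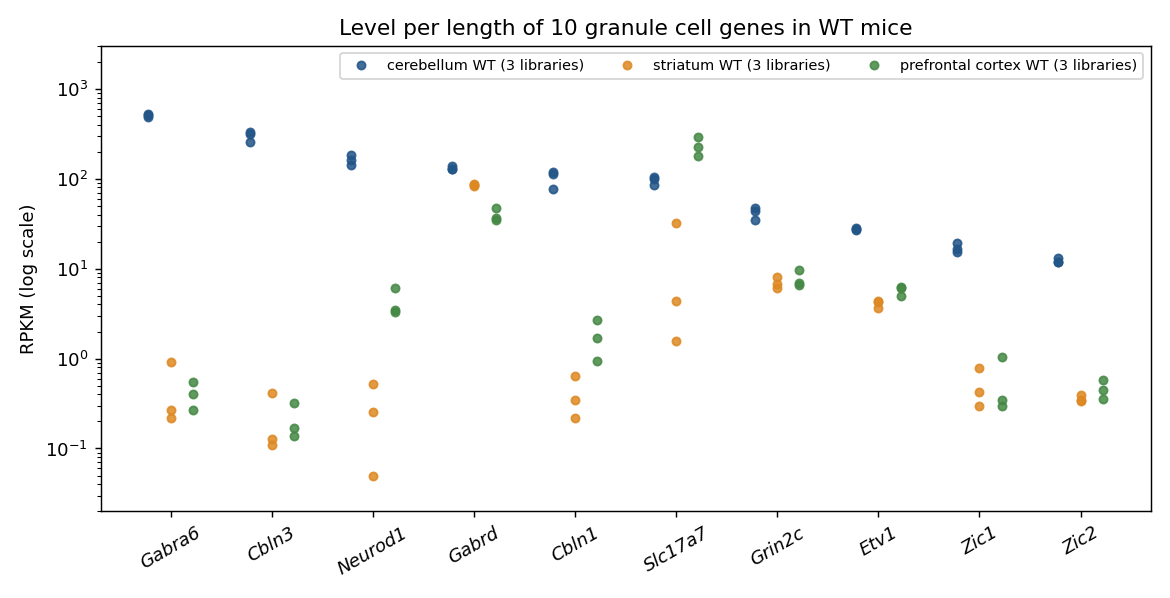
Level of each granule cell gene in RPKM, on a log axis, in the 3 WT libraries of each region, with genes ordered by their mean cerebellum level. *Gabra6*, *Cbln3* and *Neurod1* stand highest in the cerebellum (504, 300 and 164 RPKM), and *Slc17a7* is the gene whose prefrontal cortex points lie above its cerebellum points.

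The forebrain levels of *Gabra6*, *Cbln3* and *Neurod1*, the members with the largest log2 difference between cerebellum and striatum, were small beside their cerebellar levels. *Gabra6* in the 12 striatum and prefrontal cortex libraries was between 0.0108% and 0.184% of its mean WT cerebellum level, and *Cbln3* was between 0.00453% and 0.150%. *Neurod1* reached at most 0.316% in the striatum and 2.03% to 3.72% in the prefrontal cortex. The highest striatal value of all 3 genes was in the same library, striatum WT 2.

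In the cerebellum, where the knock-in comparison was made for the members, none of the 10 genes passed the adjusted threshold, and 0.831% of all tested genes did. None had an unadjusted p under 0.05, where 10.1% of genes did, and DESeq2 called 0 of 10 with 1 unadjusted, *Zic2*. The log2 fold change was below 0 for 9 of 10 members, with a median of -0.23, where 48.2% of all tested genes lay below 0 and the overall median was 0.01. All KI libraries lay below all WT libraries for 4 members, *Gabrd*, *Cbln3*, *Zic2* and *Etv1*, where 6.47% of genes did so. The genes are known from the same cell type, though not all from it alone, and were measured in the same 7 libraries. Their shared direction is therefore not 10 separate observations. In bulk tissue, fewer granule cells and less RNA of these genes per cell cannot be told apart, and the part of other cells in these levels was not tested.

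*Gabra6*, the member with the highest level per length, had the only log2 fold change above 0 among the members. No difference between members was tested. *Gabra6* was at 1264, 1198 and 1298 CPM in WT and at 1398, 1270, 1225 and 1312 CPM in KI cerebellum. The groups overlapped, and the log2 fold change was 0.05 (SE 0.172, adjusted p = 0.965), with a 95% interval from 0.807-fold to 1.33-fold. *Gabrd*, its partner subunit, was at 365, 394 and 366 CPM in WT and at 267, 306, 338 and 354 CPM in KI. Every KI library lay below every WT library, with means of 375 ± 16.4 (SD, n = 3) and 316 ± 38.3 CPM (SD, n = 4) and a log2 fold change of -0.25 (SE 0.155, adjusted p = 0.662).

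*Cbln3* was at 1248, 1526 and 1603 CPM in WT and at 1024, 1202, 1136 and 1171 CPM in KI cerebellum. The highest KI library lay just below the lowest WT library, and the log2 fold change was -0.36 (SE 0.235, adjusted p = 0.673), with a 95% interval from -0.86 to 0.13. *Cbln1* was at 233, 362 and 342 CPM in WT and at 198, 293, 264 and 274 CPM in KI. WT 1 was below 3 of the 4 KI libraries, and the log2 fold change was -0.28 (SE 0.259, adjusted p = 0.804).

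*Neurod1* had the lowest fold of the members. It was at 392, 443 and 506 CPM in WT and at 309, 294, 359 and 393 CPM in KI cerebellum. KI 4 and WT 1 were level, the other KI libraries were lower than all WT libraries, and the log2 fold change was -0.40 (SE 0.216, adjusted p = 0.572), with an interval from 0.553-fold to 1.04-fold. *Zic2*, the least abundant member, was at 38.1, 34.5 and 34.4 CPM in WT and at 27.5, 29.6, 31.9 and 29.1 CPM in KI, without overlap and with a log2 fold change of -0.27 (SE 0.181, adjusted p = 0.684). *Etv1* was at 369, 358 and 377 CPM in WT and at 336, 314, 321 and 357 CPM in KI. Its groups were separated by a narrow gap, and the log2 fold change was -0.15 (SE 0.114, adjusted p = 0.734). *Zic1* was at 86.8 to 109 CPM in WT and 69.9 to 94.1 CPM in KI, with overlap and a log2 fold change of -0.19 (SE 0.295, adjusted p = 0.904).

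*Grin2c* was at 175, 240 and 222 CPM in WT and at 134, 199, 190 and 211 CPM in KI cerebellum. The groups overlapped, and the log2 fold change was -0.21 (SE 0.202, adjusted p = 0.813). *Slc17a7* was at 458, 558 and 542 CPM in WT and at 402, 492, 457 and 532 CPM in KI, with overlap and a log2 fold change of -0.14 (SE 0.574, adjusted p = 0.976).

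**Figure D2:**
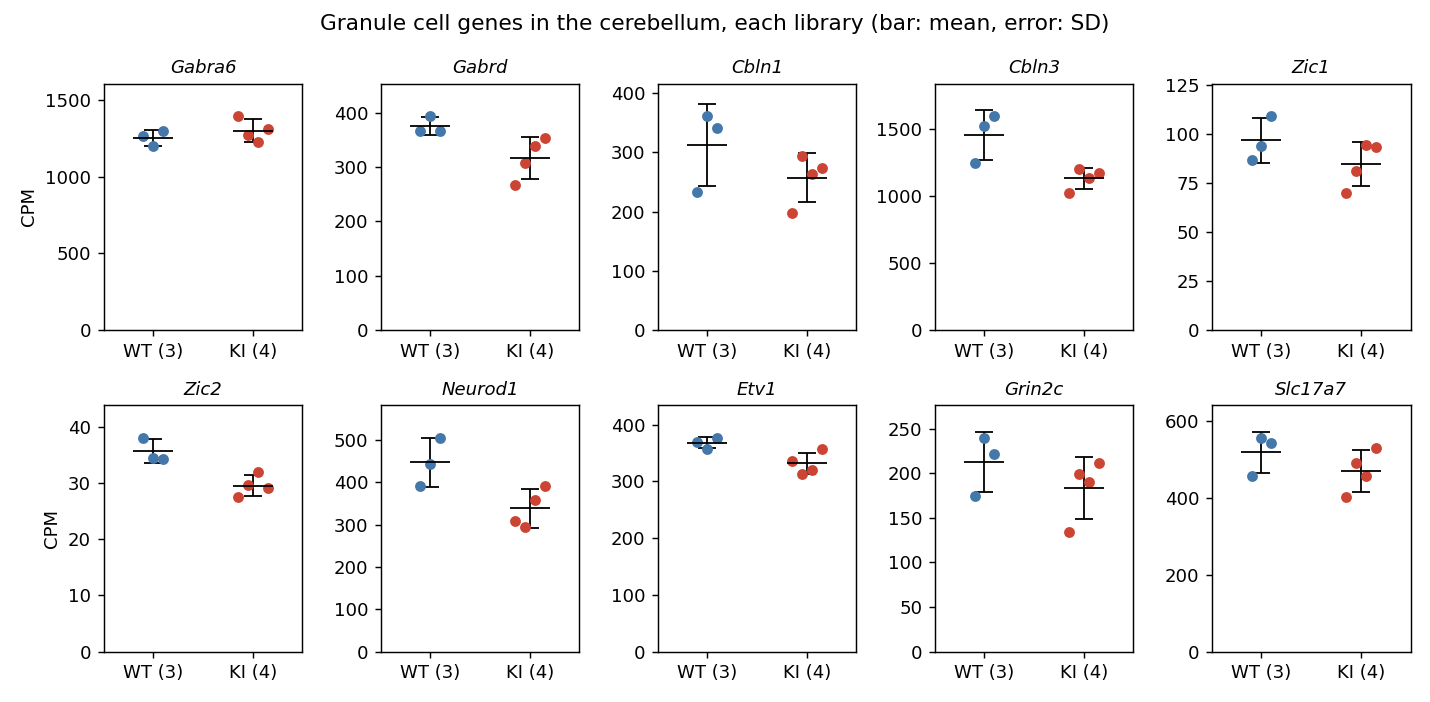
Level in CPM, on a linear axis from 0, of each granule cell gene in the 3 WT and 4 KI cerebellum libraries, where each point is a library, the bar is the mean and the error is the SD. *Gabra6* means are 1254 CPM in WT and 1301 CPM in KI, while the other 9 genes have a lower mean in KI.

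The size of these intervals depended on the libraries in the fit, because the spread of each gene was estimated over all regions and several members were sparse or uneven in the forebrain. With the 7 cerebellum libraries alone the SE of *Slc17a7* was 0.106 and that of *Cbln3* was 0.0968. In that fit 0 of 10 members were called and 4 had an unadjusted p under 0.05, *Gabrd*, *Cbln3*, *Zic2* and *Neurod1*, and the lowest adjusted p was 0.151, for *Cbln3* (0.151 to 0.929 over all alternatives). The 10.1% of all genes given above came from the fit of all 19 libraries. The share of all genes in the smaller fit is not given here. The log2 fold changes of the smaller fit ran from -0.39 for *Neurod1* to 0.06 for *Gabra6*.

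The same library was the lowest of its group for most members, which bears on the spread above. KI 1 was the lowest KI library for 7 of 10 members and WT 1 the lowest WT library for 7 of 10, and the 10 members summed to 4165 CPM in KI 1 and 4629 CPM in WT 1. KI 1 had the highest *Gabra6* level of the KI libraries. Over all cerebellum libraries the summed members ran from 4629 to 5400 CPM in WT and from 4165 to 4725 CPM in KI, and the ranges overlapped. Without the libraries KI 3 and WT 1, which held choroid plexus RNA, 0 of 10 members were called, 9 of 10 log2 fold changes were again below 0, and the median was -0.31. The part of choroid plexus RNA in the levels was not tested.

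*Gabra6* served as a reference within each library, since both genes of a ratio share the library's depth and tissue. Relative to *Gabra6* per length, 5 of the other 9 members were lower in every KI than in every WT cerebellum library, *Gabrd*, *Cbln3*, *Zic2*, *Neurod1* and *Etv1*, and the other 4 overlapped. Of all other tested genes, 8.47% were lower relative to *Gabra6* in this way. The mean of *Gabra6* itself was higher in KI, at 1301 CPM against 1254 CPM in WT, which lowers every ratio in KI. The *Cbln3* ratio was 0.505 to 0.652 in WT and 0.374 to 0.484 in KI. The *Neurod1* ratio was 0.283 to 0.355 in WT and 0.201 to 0.273 in KI. *Gabra6* made up 23.0% to 27.3% of the summed member CPM in WT and 27.7% to 33.6% in KI. The reference was picked with the values known, and a ratio does not show which of its genes differed.

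**Figure D3:**
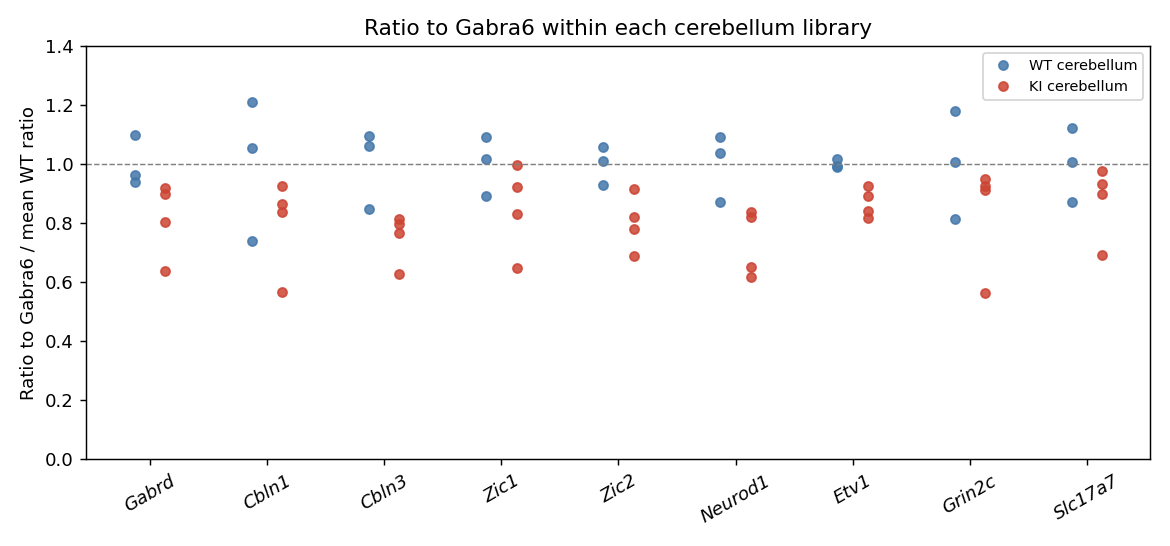
Ratio of each gene to *Gabra6*, per length and within each cerebellum library, divided by the mean WT ratio of that gene so that 1 is the WT mean. The KI points lie below the lowest WT point for *Gabrd*, *Cbln3*, *Zic2*, *Neurod1* and *Etv1*, and the points of the other 4 genes overlap.

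Other genes of mature granule cells were read beside the members. Of 19 such genes, 1 was called lower in KI cerebellum and 0 higher, with 10 log2 fold changes above 0 and 9 below and a median of 0.01. The called gene was *Grm4*, the presynaptic metabotropic glutamate receptor of parallel fibers, at 316, 310 and 256 CPM in WT and 147, 199, 160 and 198 CPM in KI (log2 fold change -0.74, SE 0.150, adjusted p = 0.0212). *Chn2*, a Rac-regulating protein, was at 1005 to 1138 CPM in WT and 766 to 842 CPM in KI and was not called (log2 fold change -0.44, SE 0.204, adjusted p = 0.477). In this list the KI libraries lay below all WT libraries for 3 genes, *Grm4*, *Chn2* and *Neurod2*, and above them for 2, among them *Cadps2* (log2 fold change 0.26, adjusted p = 0.895). *Neurod2* and *Cadps2* were named after their values were seen. Of all tested genes, 6.47% lay below and 5.82% above in this way. *Rbfox3*, which encodes the neuronal marker NeuN, had a log2 fold change of -0.26 (SE 0.134, adjusted p = 0.557). The neighbors of the members at the receptor and synapse gave no call by edgeR. None of 11 GABA-A subunits that can join α6 or δ passed the threshold (median log2 fold change 0.08, with 0 of 11 at an unadjusted p under 0.05). None of 8 genes of the cerebellin family and its partners passed (2 unadjusted). None of 6 other NMDA receptor subunits passed (2 unadjusted), with *Grin1*, the obligatory subunit, at -0.22 (adjusted p = 0.474). None of 2 other vesicular glutamate transporters passed (0 unadjusted), nor any of the 11 tested of 13 genes of granule cell precursors and young granule cells (1 unadjusted). DESeq2 called 1 gene in these 5 lists, *Cbln2*, named after its values were seen, which had 2, 1 and 0 counts in WT and 7, 113, 20 and 1 counts in KI cerebellum, and it also called *Grm4*.

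Markers of 2 other cell types differed by genotype in the same libraries. All 10 Purkinje cell markers had a log2 fold change below 0 (median -0.47), and 2 were called lower, *Pcp2* (-1.16, SE 0.136, adjusted p = 0.000196) and *Aldoc* (-0.62, SE 0.112, adjusted p = 0.00912). Of the 10 markers, 7 had an unadjusted p under 0.05 and 7 were lower in every KI than in every WT library. The shares of all tested genes were 0.831% called, 10.1% with an unadjusted p under 0.05 and 6.47% lower in this way. The 10 Purkinje cell markers summed to 10859 to 11210 CPM in WT and 6593 to 9085 CPM in KI cerebellum. Their lower sum in KI was not particular to the cerebellum. It was 2848 to 3119 CPM in WT and 2378 to 2628 CPM in KI striatum. In the prefrontal cortex it was 2575 to 3073 CPM in WT and 2230 to 2377 CPM in KI. Of 9 microglia markers 7 were called higher, *C1qa*, *C1qb*, *C1qc*, *Cx3cr1*, *Csf1r*, *Aif1* and *Cd68*, with a median log2 fold change of 0.96 and a summed level of 114 to 116 CPM in WT and 175 to 247 CPM in KI. Markers of most neurons had 0 of 8 called (0 unadjusted) and a median of -0.0021. Of these 8, 3 were lower in every KI than in every WT library and 0 were higher, where 6.47% of all genes were lower. Cerebellar interneuron, astrocyte, oligodendrocyte, endothelial, choroid plexus, striatal neuron and forebrain excitatory neuron lists each had 0 calls and 0 at an unadjusted p under 0.05. DESeq2 called 3 Purkinje cell and 8 microglia markers and 0 in each of these other lists. The part of any other cell type in the member levels was not tested, and no difference between lists was tested.

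**Figure D4:**
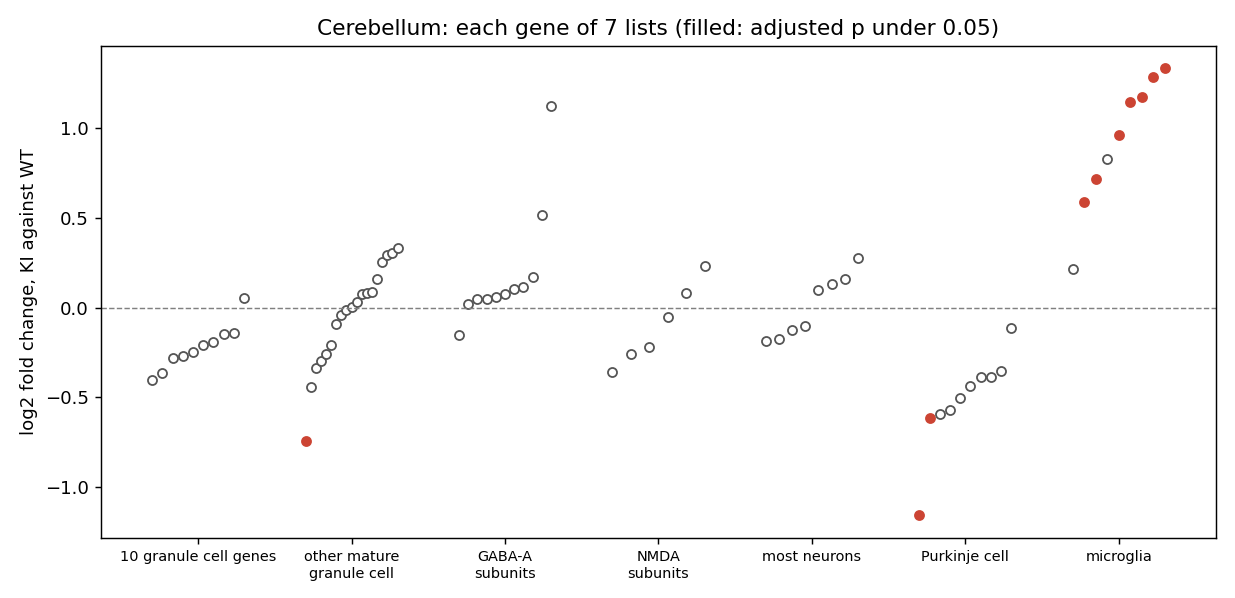
Log2 fold change of KI against WT cerebellum for each tested gene of 7 lists, with genes sorted within a list and filled points for an adjusted p under 0.05. The granule cell genes lie between -0.40 and 0.05 with no filled point, the Purkinje cell markers all lie below 0 with 2 filled points, and the microglia markers all lie above 0 with 7 filled points.

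In the striatum 0 of 10 members were called, against 0.582% of genes, and 2 had an unadjusted p under 0.05, where 8.12% of genes did. These were *Gabra6* and *Gabrd*, both without overlap and lower in KI, as were 8.46% of genes. *Gabra6* had 10, 31 and 7 counts in WT and 2, 6 and 3 counts in KI striatum. All counts were small, WT 2 was the highest, and the log2 fold change was -2.16 (SE 0.547, adjusted p = 0.108), or -1.24 (adjusted p = 0.603) without WT 2. DESeq2 called *Gabra6* there (log2 fold change -2.20, adjusted p = 0.00146), and the adjusted p ran from 0.00146 to 0.603 over the alternatives. With the 6 striatum libraries alone the gene had too few counts to be tested. *Gabrd*, at a level far above counting noise, was at 238, 252 and 246 CPM in WT and at 149, 205 and 175 CPM in KI striatum. Every KI library was below every WT library, and the log2 fold change was -0.48 (SE 0.167, adjusted p = 0.365). Of 8 markers of striatal projection neurons, none was called (1 unadjusted) but 7 were also lower in every KI than in every WT striatum library, with a median log2 fold change of -0.67 where the median of all genes was -0.01. Their summed level was 9448 to 10832 CPM in WT and 5099 to 7389 CPM in KI striatum, and their part in the level of *Gabrd* was not tested. The other members ran from -0.89 for *Neurod1* to 0.33 for *Slc17a7*.

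*Slc17a7* varied widely between the striatal libraries. It was at 23.3, 8.40 and 171 CPM in WT and at 110, 49.0 and 96.1 CPM in KI striatum. *Tbr1*, a marker of forebrain excitatory neurons that was chosen here after its values were seen, was at 5.81, 0.669 and 22.6 CPM in the same WT libraries and at 20.6, 6.89 and 11.4 CPM in the same KI libraries. Both genes were highest in WT 3 and lowest in WT 2. The whole list of 7 forebrain excitatory neuron markers did not vary as widely, with a summed level of 283 to 336 CPM in WT and 300 to 365 CPM in KI striatum, and the part of cortical tissue in *Slc17a7* was not tested. Without WT 3, *Slc17a7* was called higher in KI striatum (log2 fold change 2.42, SE 0.371, adjusted p = 0.00566), while with all libraries it was not (0.33, SE 0.630, adjusted p = 0.958).

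In the prefrontal cortex 0 of 10 members were called, against 0.107% of genes, and all 10 overlapped between genotypes. The share of all genes without overlap was 8.69%. *Gabrd* and *Zic1* had an unadjusted p under 0.05, as did 5.93% of genes, and DESeq2 called 0 of 10 with 3 unadjusted. *Gabrd* was at 101, 137 and 105 CPM in WT and 62.9, 112 and 88.2 CPM in KI, with a log2 fold change of -0.38 (SE 0.170, adjusted p = 0.827). *Zic1* was at 1.99, 1.70 and 5.93 CPM in WT and 1.76, 1.20 and 1.94 CPM in KI. Its value of -0.98 (SE 0.461, adjusted p = 0.840) rested on WT 3, the library with high *Calb2* and *Eomes*, and was -0.18 without it.

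**Figure D5:**
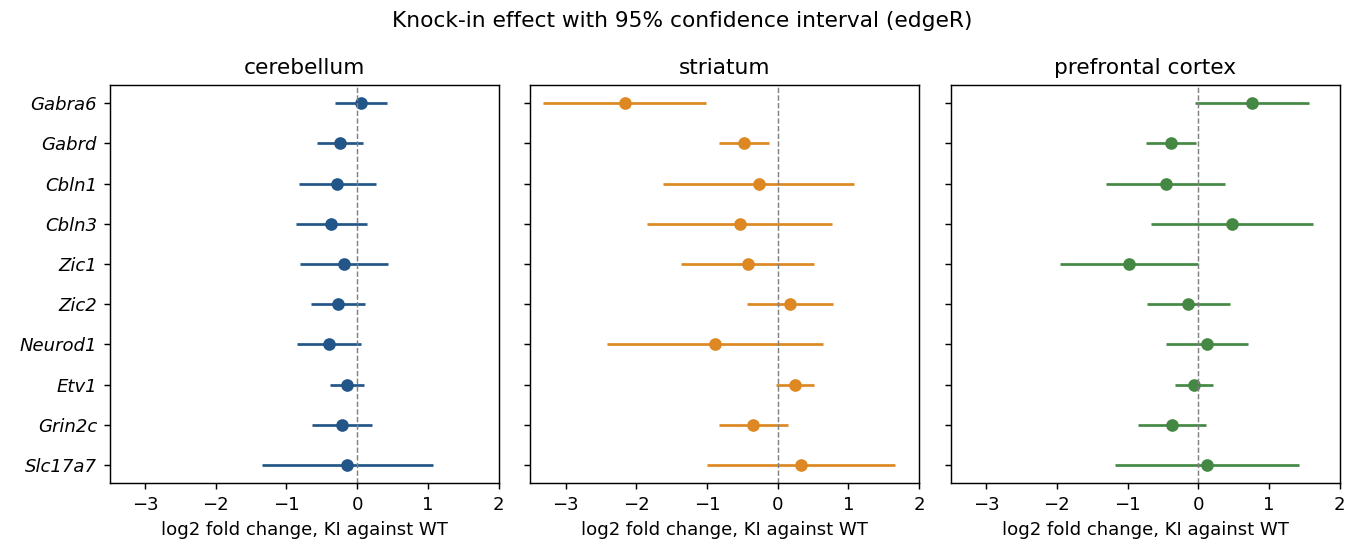
Log2 fold change of KI against WT in each region for the 10 granule cell genes, with points for the edgeR estimate and lines for its 95% interval. In the cerebellum the estimates lie between -0.40 and 0.05 and every interval includes 0, while intervals in the striatum and prefrontal cortex are wider for *Cbln1*, *Cbln3* and *Neurod1* and *Gabra6* in the striatum lies at -2.16.

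The KI effect was compared between regions in the same fit. For the difference between cerebellum and striatum 0 of 10 members were called, against 0.0119% of genes, and 2 had an unadjusted p under 0.05, *Gabra6* and *Etv1*, as did 6.69% of genes. The difference for *Gabra6* was 2.22 on the log2 scale (SE 0.576, adjusted p = 0.288) and rests on the low striatal counts above, and DESeq2 called it (2.25, adjusted p = 0.00617, with a range of 0.00617 to 0.757 over the alternatives). For *Etv1* it was -0.39 (SE 0.170, adjusted p = 0.682). For the difference between cerebellum and prefrontal cortex 0 of 10 were called, against 0.0178% of genes, with 0 unadjusted, where 6.12% of genes were, and DESeq2 called 0 with 1 unadjusted.

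Genes that ran most like *Gabra6* over the 19 libraries were sought among 10278 genes with at least 10 CPM in WT cerebellum. The measure was the root mean square difference of centered log2 CPM, so that a small value is a close likeness, and it mostly reflects the contrast of cerebellum and forebrain that the libraries share. The member *Cbln3* was at 0.633. The 5 closest other genes were *Fat2*, a granule cell protocadherin, at 0.813, *Cnpy1* at 0.881, *Crtam* at 0.934, *Ppp1r17* at 1.22 and *Dao*, D-amino acid oxidase, at 1.23. In KI cerebellum these had log2 fold changes of -0.34, -0.52, -0.35, -0.38 and -0.04, and none was called. Those closest to the mean of the 10 members were *Slc1a6* at 0.282, *Gm2694* at 0.375, *Zic5* at 0.573, *Tmem266* at 0.584 and *Smpx* at 0.621, again with no call in KI cerebellum. *Ppp1r17* and *Slc1a6* belong to the list of Purkinje cell markers above, so a close likeness here does not mark a gene as a granule cell gene.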

How the data were processed

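The 19 RNA libraries came from 3 brain regions of WT and SCA17 knock-in mice, each mapped to its region, genotype and replicate number from the labels. Total RNA was extracted with Trizol, libraries were made with the SMART-Seq v4 and Nextera XT kits, and sequencing was on an Illumina HiSeq1000. The submitters' processing notes name bcl2fastq 2.17.1.14, STAR 2.5.2b, HTSeq, DESeq2 1.10.1 and the build GRCm38.p3, and the paper's methods name Cufflinks and Cuffdiff. The annotation and the use of strand in counting are not given in the sources used here, so reads of overlapping genes on opposite strands may not have been told apart. The authors deposited raw read counts per Ensembl gene. They also deposited a normalized signal table, which holds the counts divided by 1 DESeq2 size factor per library and was used here only to set WT levels side by side.

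Gene names, positions and exon lengths came from GENCODE M21 on GRCm38, which has an entry for 40254 of 41128 identifiers. Promoters came from RefSeq. Counts were fitted in R 4.3.3 with edgeR 4.0.16: filterByExpr over 6 groups left 16841 genes, libraries were scaled by TMM, and one quasi-likelihood fit over all 19 libraries (13 residual degrees of freedom) gave each comparison. P values were adjusted by Benjamini-Hochberg over all tested genes, with a threshold of 0.05. Shares of all genes at an unadjusted p under 0.05 came from the edgeR fit of all 19 libraries. No such share is given for DESeq2 or for fits of fewer libraries. CPM used TMM-scaled totals, and log2 CPM used a prior count of 2. The 95% intervals come from the fitted SE. The methods give 3 to 4 mice of each genotype and do not say whether libraries of different regions share an animal. The fit treats all 19 libraries as independent, and p values measure only the spread between these libraries. Both count tests were tried on simulated data first.

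Library totals of 10639110 to 17431284 counts set the precision, and low counts carry counting error only as far as reads without molecular identifiers are independent. Within-group library pairs differed by more than sampling noise (chi-square per degree of freedom 4.95 to 30.0 over 21 pairs), so none was a repeat deposit.

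The members and gene lists were chosen with earlier results of these data known. The text names all 10 members, every gene of another list past the adjusted threshold in KI cerebellum, otherwise at most 4 genes per list, those with the highest WT cerebellum level per length, and the 5 genes closest to *Gabra6* and to the member mean. *Tbr1* in the striatum, *Neurod2* and *Cadps2* in the cerebellum, *Eomes* and *Calb2* in the prefrontal cortex and *Tbp* were added after values were seen. Some single-gene results are not reported here. Alternatives were DESeq2 size factors or library totals in edgeR, DESeq2 1.42.0, no filter beyond 1 count, the compared regions alone, a replicate block within or across regions, each library left out, the authors' normalized levels, and, added after seeing the data, leaving out the cerebellum libraries KI 3 and WT 1.

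Deviations from the group means correlated at 0.233 to 0.368 for all 6 pairs of striatum and prefrontal cortex libraries with the same replicate number. For such pairs that involved a cerebellum library the correlation ran from -0.104 to 0.163. The labels do not say what a number marks. With the block across regions the same 5 members were called between WT striatum and WT prefrontal cortex.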

Additional observations from a re-analysis of the deposited data

How the results depend on the processing

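In KI against WT cerebellum 0 of 10 granule cell genes were called in every alternative tried, 9 of 10 log2 fold changes stayed below 0 in each, and the median ran from -0.28 to -0.16 with a library left out. The WT differences against the striatum (10 called) and between striatum and prefrontal cortex (5 called) kept their counts in every alternative, and against the prefrontal cortex 9 were called, or 10 with those regions alone. In KI striatum 1 member was called in place of 0 by DESeq2 and under the replicate block within regions (*Gabra6* both times), and the count ran from 0 to 1 with a library left out, where the call was *Slc17a7* without WT 3. For the difference of the KI effect between cerebellum and striatum, 1 was called (*Gabra6*) by DESeq2 and under the block, and 0 with any library left out.

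The replicate numbers did not pair KI with WT libraries: 2 of 9 correlations were over 0.1 (range -0.245 to 0.172), so a call gained under the block is a value only. Under that block *Gabra6* in the striatum had a log2 fold change of -2.12 (adjusted p = 0.0111), and the genes called over the whole table in the prefrontal cortex were 9 in place of 18.

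Among the member values given above, signs turned only with a library left out, and only for uncalled values. In KI striatum *Cbln1* ran from -0.58 to 0.22, *Cbln3* from -1.04 to 0.31, *Zic1* from -0.78 to 0.041 and *Slc17a7* from -0.19 to 2.42. In KI prefrontal cortex *Cbln3* ran from -0.13 to 0.93, *Zic2* from -0.49 to 0.21, *Neurod1* from -0.031 to 0.46, *Etv1* from -0.21 to 0.034 and *Slc17a7* from -0.031 to 0.32. The *Etv1* difference between cerebellum and prefrontal cortex ran from -0.18 to 0.062.

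Over all tested genes DESeq2 called 336, 214 and 52 in KI cerebellum, striatum and prefrontal cortex, where edgeR called 140, 98 and 18. With regions alone edgeR called 46 genes for the striatum and 0 for prefrontal cortex. For the differences between regions, DESeq2 called 50 and 32 where edgeR called 2 and 3. The causes were not tested. Depth limits *Gabra6*, *Cbln3*, *Neurod1* and *Cbln1* in the striatum, where libraries held as few as 1 to 10 counts of them.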
